A study of Mus musculus with 10 samples.

Results

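Klf2, S1pr1, Ccr7, Foxo1 and Itgb7 are genes through which developing T cells acquire the ability to leave the thymus and to home to lymphoid and mucosal tissue, and their chromatin was followed here in thymic invariant natural killer T (iNKT) cells. A region was taken as belonging to a gene when it overlapped the gene record or lay within 50 kb of its annotated transcription start on the mouse genome build GRCm38 (mm10). By this rule 129 of the 94823 regions of open chromatin measured in the series were selected, 23 at Klf2, 27 at S1pr1, 29 at Ccr7, 22 at Foxo1 and 28 at Itgb7. The regions of each gene were taken by position alone, whereas the genes had been chosen with earlier results of these data known.

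ATAC-seq gave the accessibility. A transposase places sequencing adapters where DNA is open, and the values are insertion counts per region, given below as CPM (insertions scaled to a common library size of 1000000). Thymic iNKT cells had been sorted by flow cytometry into iNKT1 cells (CD27+ CD122+) and iNKT2 cells (CD27+ CD122-) from the thymus of BALB/c and of SKG animals of 8 to 10 weeks. SKG mice carry a hypomorphic mutation of Zap70, the kinase that relays the T cell receptor signal, on the BALB/c background. The mutation is present in every cell of the animal from the germ line, and it cannot be checked in insertion counts. There were 2 libraries each of BALB/c iNKT1 and SKG iNKT1 cells and 3 each of BALB/c iNKT2 and SKG iNKT2 cells. The labels do not say that the replicates came from separate animals, so that every p-value measures only the spread between these 10 libraries.

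iNKT1 cells produce interferon gamma and depend on the transcription factor T-bet, whereas iNKT2 cells produce interleukin 4. In mature thymocytes the transcription factor FOXO1 turns on Klf2, and KLF2 in turn drives S1pr1, the receptor that senses sphingosine 1-phosphate in blood and lymph and pulls cells out of the thymus. FOXO1 also sustains Ccr7, whose product guides cells along the chemokines CCL19 and CCL21 to the thymic medulla and to lymph nodes, while Itgb7 encodes the integrin chain that, with the alpha 4 chain, directs cells to the gut. T cell receptor signalling through the kinase AKT excludes FOXO1 from the nucleus, which makes this axis one to look at where the receptor signal is weakened.

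Library totals ranged from 14988590 to 36342635 insertions, so that 1 insertion was worth between 0.0265 and 0.0674 CPM and values under 0.202 CPM rested on 3 insertions or fewer in the smallest library. Replicate 1 of both iNKT2 groups stood apart from the other replicates of its group: over all regions the chi-square per degree of freedom was 8.24 to 11.9 for pairs that held it and 2.46 to 3.30 for the other pairs of replicates. All 4 iNKT1 marker starts listed (Tbx21, Ifng, Cxcr3 and Il2rb) summed to 196 to 220 CPM in iNKT1 libraries and to 43.8 to 63.8 CPM in iNKT2 libraries. Il2rb encodes CD122, the sorting gate, and is no finding. The 5 iNKT2 marker starts summed to 67.4 to 79.8 CPM in iNKT1 and to 75.6 to 123 CPM in iNKT2 libraries, where Il17rb and Il6ra were the higher ones and Zbtb16, Il4 and Gata3 were not. The Zbtb16 start had the highest CPM of them in iNKT1 cells, whereas the Il6ra start had it in iNKT2 cells. At Zbtb16 a mean of 33.6 CPM in BALB/c iNKT1 stood against 26.3 CPM in BALB/c iNKT2 cells, and 29.2 against 30.9 CPM in SKG cells with overlap. The starts of Il23r and Ccr6, which mark iNKT17 cells, summed to at most 0.578 CPM in iNKT1 and to 3.83 to 7.35 CPM in iNKT2 libraries. The part of these cells in the differences between subsets was not tested. In sorted but bulk material, fewer cells with an open region and a lower accessibility per cell cannot be told apart.

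The sequences under the regions on which the results turn are shown first, each read from the plus strand of GRCm38.p6, 5′ to 3′. The reference is from C57BL/6J mice, whereas the animals were of BALB/c background. Capitals mark matches, on either strand, to any of 10 short motifs searched: FOXO GTAAACA, KLF CCNCNCCC, NFAT TGGAAA, EGR GCGTGGGCG, NF-kB GGGANTTTC, RUNX TGTGGTT, T-box TCACACC, TCF CTTTGAT, MEF2 CTATTTATA and ETS CAGGAAGT. The Klf2 promoter is the part of the RefSeq promoter (GRCm38.p6) that lies before the start, and it is shown because its region fell in iNKT2 cells. Klf2, Foxo1 and Itgb7 were matched in the RefSeq promoter table, and S1pr1 and Ccr7 were not. The others are the central 300 bases of the region named by its distance in bp from the transcription start to the nearest edge, downstream being positive.

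Klf2 promoter, chr8:72318812-72319032: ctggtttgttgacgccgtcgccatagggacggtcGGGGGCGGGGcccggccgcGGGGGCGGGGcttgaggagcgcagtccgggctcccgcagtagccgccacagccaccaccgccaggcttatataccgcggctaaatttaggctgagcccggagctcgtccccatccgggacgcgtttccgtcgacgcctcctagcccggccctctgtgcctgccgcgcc
Klf2 +32358, in an intron of Eps15l1, chr8:72351553-72351852: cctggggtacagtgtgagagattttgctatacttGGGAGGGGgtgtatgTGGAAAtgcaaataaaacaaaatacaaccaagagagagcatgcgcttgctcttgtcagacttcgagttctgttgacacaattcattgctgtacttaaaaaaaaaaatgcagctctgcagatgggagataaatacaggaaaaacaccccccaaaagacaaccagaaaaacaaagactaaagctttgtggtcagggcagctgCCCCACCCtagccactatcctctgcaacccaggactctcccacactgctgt
S1pr1 +22347, intergenic, chr3:115692397-115692696: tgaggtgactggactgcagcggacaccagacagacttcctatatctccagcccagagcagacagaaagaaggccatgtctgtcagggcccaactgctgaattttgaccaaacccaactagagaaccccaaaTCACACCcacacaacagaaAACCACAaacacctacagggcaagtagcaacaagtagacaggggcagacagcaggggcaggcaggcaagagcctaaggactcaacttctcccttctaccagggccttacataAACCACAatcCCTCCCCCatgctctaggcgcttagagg
Ccr7 -15741, intergenic, chr11:99170884-99171183: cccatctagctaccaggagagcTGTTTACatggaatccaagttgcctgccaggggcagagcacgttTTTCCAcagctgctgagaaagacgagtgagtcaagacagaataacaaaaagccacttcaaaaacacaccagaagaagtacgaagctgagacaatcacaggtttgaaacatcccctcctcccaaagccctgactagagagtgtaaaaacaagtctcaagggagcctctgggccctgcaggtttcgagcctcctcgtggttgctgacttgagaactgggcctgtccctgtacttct
Ccr7 -48712, intergenic, chr11:99203958-99204257: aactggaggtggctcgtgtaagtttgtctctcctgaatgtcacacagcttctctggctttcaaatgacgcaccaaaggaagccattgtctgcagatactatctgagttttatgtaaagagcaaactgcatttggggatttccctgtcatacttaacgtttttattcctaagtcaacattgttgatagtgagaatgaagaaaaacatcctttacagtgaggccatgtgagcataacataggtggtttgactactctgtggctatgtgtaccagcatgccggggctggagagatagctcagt
Foxo1 +28950, in an intron of Foxo1, chr3:52297307-52297606: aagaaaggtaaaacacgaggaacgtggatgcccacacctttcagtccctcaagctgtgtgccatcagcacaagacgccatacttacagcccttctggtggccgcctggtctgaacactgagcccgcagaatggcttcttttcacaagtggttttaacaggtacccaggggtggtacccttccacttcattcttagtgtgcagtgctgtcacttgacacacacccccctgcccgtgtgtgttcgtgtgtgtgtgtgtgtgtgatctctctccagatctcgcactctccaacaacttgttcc
Itgb7 +741, within 1 kb of the Itgb7 start, chr15:102230791-102231090: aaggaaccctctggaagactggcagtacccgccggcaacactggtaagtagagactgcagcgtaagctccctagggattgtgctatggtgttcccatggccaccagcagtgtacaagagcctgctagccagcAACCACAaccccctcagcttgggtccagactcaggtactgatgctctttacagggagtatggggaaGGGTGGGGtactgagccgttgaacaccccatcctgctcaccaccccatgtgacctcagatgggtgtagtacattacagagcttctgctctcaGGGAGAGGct

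The Klf2 promoter held 4 KLF matches, which overlap in pairs inside 2 GC-rich blocks, and 41.2% of 221-base stretches before all 32817 RefSeq starts hold at least 1. Of the central 300-base windows of all regions, 36.8% hold the KLF motif, 23.4% NFAT, 13.2% RUNX, 5.48% T-box and 4.49% FOXO. The Klf2 region at +32358 held 2 KLF matches and an NFAT match. The S1pr1 region at +22347 held a T-box match, 2 RUNX matches and a KLF match. The only FOXO match of the 7 sequences lay in the Ccr7 region at -15741, beside an NFAT match. Itgb7 +741 held a RUNX match and 2 KLF matches. The windows of Ccr7 -48712 and Foxo1 +28950 held none of the 10 strings. Over whole regions, FOXO was found in 16 of the 129 regions (12.4%, against 6.27% of all regions), 6 of them at S1pr1, 5 at Ccr7 and 1 at Klf2, and KLF in 73 (56.6%, against 43.7%). These shares were not matched for width. Among regions about as wide as each of the 5 start regions, 7.33% to 25.8% held FOXO and 54.9% to 98.6% held KLF.

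A region was called when its adjusted p was under 0.01 and its change at least 4-fold, and is said to have risen or fallen when its adjusted p alone was under 0.01. All adjusted p-values are from edgeR's quasi-likelihood test with Benjamini-Hochberg adjustment over the 94823 regions, and changes are on the log2 scale with their standard errors. Between the subsets of BALB/c mice, 17 of the 129 regions were called higher in iNKT2 cells and 7 lower, that is 13.2% and 5.43%, where 15.5% and 6.36% of all regions were called. In SKG mice 17 were called higher and 11 lower, 13.2% and 8.53%, where 10.2% and 6.96% of all regions were. By these calls the 129 regions as a set were near the rest of the open chromatin, and the genes differed from each other in direction. By adjusted p alone 40 of the 129 rose and 33 fell in BALB/c mice, where 25.7% of all regions rose and 23.4% fell. In SKG mice 40 of the 129 rose and 31 fell, where 18.4% of all regions rose and 17.6% fell. By this looser rule the shares of the 129 were above those of all regions, more so in SKG mice. The estimate lay above 0 in 69 and below 0 in 60 of the 129 regions in each genotype. When only the 97 regions whose nearest start was that of the gene itself were counted, 11 were called higher and 7 lower in BALB/c mice, and 9 higher and 11 lower in SKG mice.

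**Figure D1:**
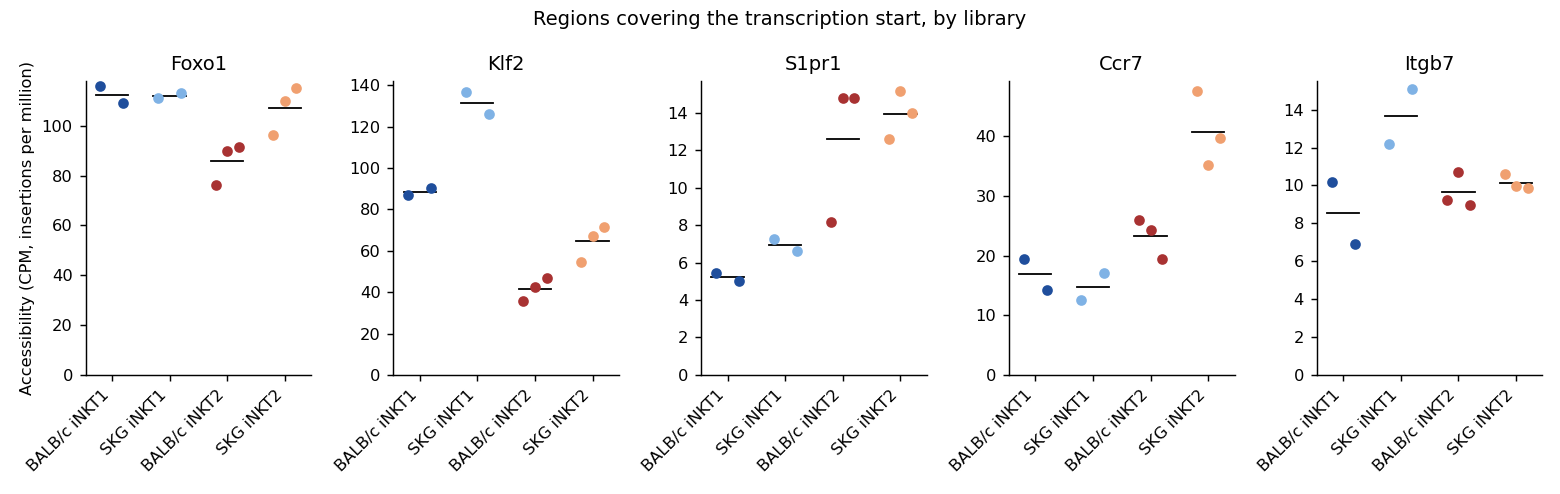
Accessibility (CPM, linear axis from 0) of the region that covers the transcription start of each of the 5 genes, with 1 point per library and a bar at the mean of each group. Klf2 is lower in every iNKT2 than in every iNKT1 library, S1pr1 is higher in every iNKT2 library, and the 3 SKG iNKT2 libraries lie above all others at Ccr7.

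The start of Foxo1 was open in every group. The region over its start spans 2368 bp (chr3:52267243-52269610). It held 116 and 109 CPM in BALB/c iNKT1, 111 and 113 in SKG iNKT1, 76.2, 89.8 and 91.7 in BALB/c iNKT2 and 96.4, 110 and 115 CPM in SKG iNKT2 cells. The BALB/c iNKT2 libraries were lower than all others, but the change from BALB/c iNKT1 cells was -0.39 ± 0.127 (adjusted p = 1.6e-02), or -0.44 (adjusted p = 2.9e-03) with the replicate number as a block, and over the start regions of 9916 protein-coding genes the median of the same comparison was -0.35. In SKG mice the subsets overlapped, at -0.06 ± 0.129 (adjusted p = 0.72).

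Inside the gene, however, one element was restricted to iNKT1 cells. The intronic region at +28950 (chr3:52297286-52297628) held 15.0 and 13.8 CPM in BALB/c iNKT1 and 15.1 and 15.4 CPM in SKG iNKT1 libraries. In iNKT2 libraries it held 0.408, 0.212 and 0.247 CPM for BALB/c and 0.565, 0.0459 and 0.27 CPM for SKG. Its change was -5.62 ± 0.364 in BALB/c (adjusted p = 1.6e-08) and -5.51 ± 0.376 in SKG mice (adjusted p = 3.2e-08), and the genotypes differed by 0.08 ± 0.303 in iNKT1 cells (adjusted p = 0.94). Another intronic region, at +74885, fell less, from a mean of 32.5 to 15.5 CPM in BALB/c and from 38.8 to 15.9 CPM in SKG cells (-1.07, adjusted p = 5.4e-05, and -1.30, adjusted p = 1.5e-05). In the opposite direction, the intronic region at +6168 rose from 1.40 to 4.29 CPM in BALB/c and from 1.41 to 5.46 CPM in SKG cells (1.62, adjusted p = 1.9e-05, and 1.95, adjusted p = 9.4e-06), and that at +50920 was called higher in BALB/c mice (2.68 ± 0.508, adjusted p = 2.9e-04), with the call lost without BALB/c iNKT1 replicate 1, where the value was 2.09. The regions at +74885, +6168 and +50920 were chosen after their values were seen. Of the 22 Foxo1 regions, 17 of which lie in the gene, 7 rose and 3 fell in BALB/c mice and 6 rose and 3 fell in SKG mice, with medians of 0.67 and 0.65 against 0.06 and 0.14 over all regions. Of all regions, 25.7% rose and 23.4% fell in BALB/c and 18.4% rose and 17.6% fell in SKG mice. With quantile normalization the BALB/c median turned to -0.09, with 10 estimates above and 12 below 0.

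**Figure D2:**
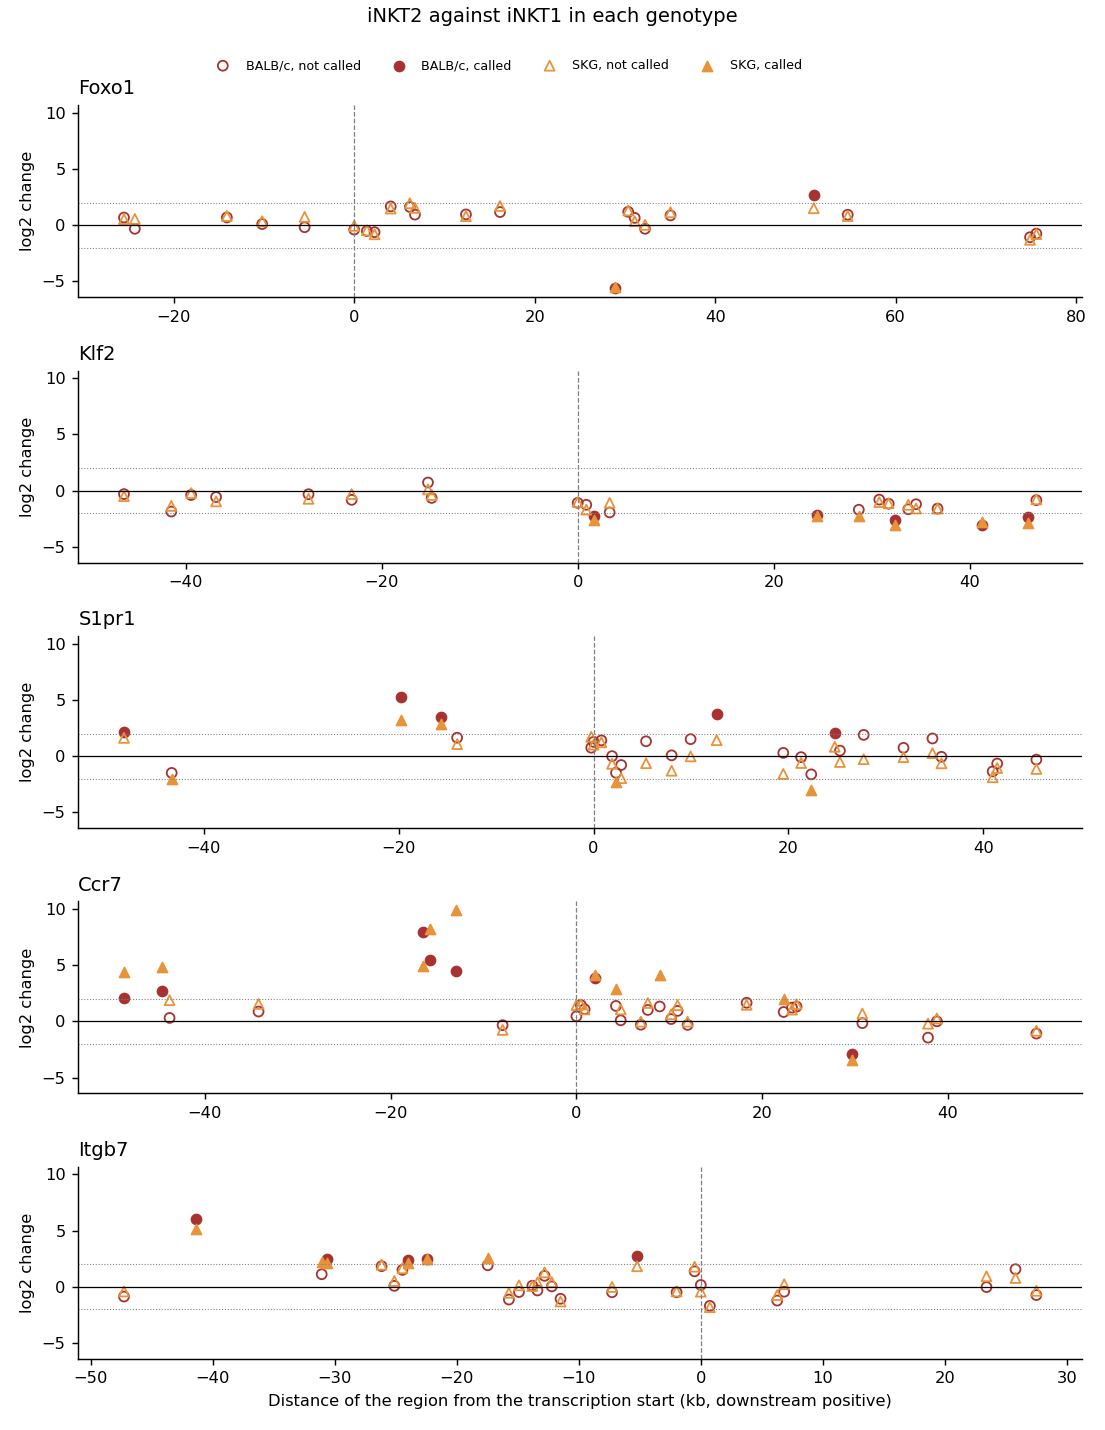
Change of every region (log2, iNKT2 against iNKT1, y axis) by its distance from the transcription start (kb, downstream positive, x axis), with a panel per gene and the 2 genotypes in separate symbols. Regions at Klf2 lie below 0 with 1 exception in each genotype, S1pr1 holds both directions, and at Ccr7 most lie above 0. The points furthest from 0 at Ccr7 come from regions with 0 or 1 insertion in an iNKT1 group, whose fitted size depends on the small count added by the fit.

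Klf2, by contrast, was less accessible in iNKT2 cells at its start and at most of the regions around it. Klf2 encodes the zinc finger factor at the centre of the egress programme. The region over its start (chr8:72318665-72319770, 69.2% GC) held 86.9 and 90.3 CPM in BALB/c iNKT1, 137 and 126 in SKG iNKT1, 35.7, 42.5 and 46.8 in BALB/c iNKT2 and 54.8, 67.3 and 71.4 CPM in SKG iNKT2 libraries. Every iNKT2 library was lower than every iNKT1 library. The region fell by 1.09 ± 0.143 on the log2 scale in BALB/c mice (adjusted p = 1.0e-05) and by 1.03 ± 0.143 in SKG mice (adjusted p = 2.6e-05), where the medians over protein-coding start regions were -0.35 and -0.14. Only 4.60% and 3.27% of those start regions had a lower estimate. With a GC trend removed from each library the BALB/c change shrank to -0.69 and the SKG change to -0.83, and both still passed.

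The estimate was below 0 in 22 of the 23 Klf2 regions in each genotype, and in all 15 regions whose nearest start was that of Klf2. Of the 23, 16 fell in BALB/c mice, where 23.4% of all regions did, and 14 in SKG mice, where 17.6% did. None of the 23 rose, where 25.7% of all regions rose in BALB/c and 18.4% in SKG mice. A 4-fold fall was reached by 5 regions (21.7%) in BALB/c mice and by 6 (26.1%) in SKG mice, where 6.36% and 6.96% of all regions were called lower. The medians were -1.21 and -1.13. Summed over the 23 regions, Klf2 held 321 ± 5.95 CPM (SD, n = 2) in BALB/c iNKT1, 434 ± 10.9 (n = 2) in SKG iNKT1, 144 ± 2.69 (n = 3) in BALB/c iNKT2 and 184 ± 3.83 CPM (n = 3) in SKG iNKT2 cells.

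The largest of these changes lay downstream of the gene, where 11 of the regions fall in introns of the neighbouring gene Eps15l1. The region at +32358 (chr8:72351391-72352014) held 15.6 and 16.7 CPM in BALB/c iNKT1, 28.8 and 28.9 in SKG iNKT1, 3.17, 2.46 and 2.02 in BALB/c iNKT2 and 4.72, 3.08 and 2.56 CPM in SKG iNKT2 libraries. The subsets did not overlap, and the region fell by 2.65 ± 0.23 in BALB/c (adjusted p = 1.8e-07) and by 3.02 ± 0.23 in SKG mice (adjusted p = 8.0e-08). Next to it, the most accessible distal region, at +34517, held a mean of 82.4 CPM in BALB/c iNKT1, 103 in SKG iNKT1, 35.6 in BALB/c iNKT2 and 34.1 CPM in SKG iNKT2 cells, and it fell by 1.21 ± 0.115 (adjusted p = 4.4e-07) and by 1.59 ± 0.116 (adjusted p = 5.7e-08). The regions at +41262 and +45893 were called lower in each genotype as well, at -3.08 and -2.81 and at -2.39 and -2.85. So was the region at +1668, which lies in a UTR of Klf2, at -2.30 and -2.60, but in BALB/c mice it was not called without BALB/c iNKT1 replicate 1, at -1.93. The same held for +24417, at -2.20 and -2.23, which was not called in BALB/c mice with the replicate number as a block or without BALB/c iNKT2 replicate 3 (-1.86) or, in the other genotype, without SKG iNKT2 replicate 3 (-1.98). The region at +28677 was called in SKG mice alone, at -2.23 ± 0.524 (adjusted p = 2.3e-03), and not without SKG iNKT1 replicate 1 or SKG iNKT2 replicate 2. That region changed by -1.70 ± 0.53 in BALB/c mice (adjusted p = 1.1e-02), and its difference between the genotypes was -0.54 ± 0.77 (adjusted p = 0.76). Apart from +32358, the distal Klf2 regions were chosen after their values were seen.

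S1pr1, the receptor of the axis, did not move as 1 unit. Its start was more accessible in iNKT2 cells, whereas the coding exon and several distal regions were less accessible. The region over the start (chr3:115714546-115715291) held 5.47 and 5.03 CPM in BALB/c iNKT1, 7.26 and 6.61 in SKG iNKT1, 8.19, 14.8 and 14.8 in BALB/c iNKT2 and 12.6, 15.2 and 14.0 CPM in SKG iNKT2 libraries. All iNKT2 libraries were above all iNKT1 libraries, with BALB/c iNKT2 replicate 1 nearest to them. The region rose by 1.26 ± 0.239 in BALB/c (adjusted p = 3.0e-04) and by 1.01 ± 0.243 in SKG mice (adjusted p = 2.8e-03), but without SKG iNKT1 replicate 1 or 2 the latter no longer passed, at 1.08 and 0.94. Among protein-coding start regions, 94.8% and 92.4% had a lower estimate.

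Within the exon that holds the receptor's reading frame, the region at +2306 (chr3:115712348-115712766) held 9.08 and 9.17 CPM in BALB/c iNKT1, 18.1 and 17.6 in SKG iNKT1, 2.63, 3.17 and 4.0 in BALB/c iNKT2 and 3.54, 3.77 and 3.24 CPM in SKG iNKT2 libraries. It fell by 1.49 ± 0.195 in BALB/c (adjusted p = 1.0e-05) and by 2.34 ± 0.198 in SKG mice (adjusted p = 2.0e-07), the reverse of the start upstream of it. Downstream of the gene, the region at +22347 (chr3:115692369-115692725) fell from 17.7 and 14.7 CPM to 5.55, 4.50 and 5.69 CPM in BALB/c (-1.63 ± 0.189, adjusted p = 3.0e-06) and from 25.3 and 28.4 CPM to 3.71, 2.53 and 3.57 CPM in SKG mice (-3.03 ± 0.200, adjusted p = 2.5e-08). Upstream, the region at -43303 (chr3:115758375-115759295) fell from a mean of 43.3 to 15.4 CPM in BALB/c (-1.50, adjusted p = 1.9e-06) and from 61.8 to 14.7 CPM in SKG mice (-2.07, adjusted p = 1.4e-07). Other regions went the opposite way. At -19792 there were 0 and 2 insertions in BALB/c iNKT1 libraries and 1.57, 1.67 and 1.48 CPM in BALB/c iNKT2 libraries, a ratio of 44.5 (95% exact interval 12.1 to 371, counting error only). Regions at +12636 (3.71 ± 0.559, adjusted p = 3.8e-05) and -15686 (3.49 ± 0.597, adjusted p = 1.2e-04) also rose at low levels, with means of 1.21 and 1.84 CPM in BALB/c iNKT2 cells. The regions at +2306, -19792, +12636 and -15686 were singled out after their values were seen.

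In all, 11 of the 27 S1pr1 regions rose (against 25.7% of all regions) and 5 fell (against 23.4%) in BALB/c mice. Of the 27, 5 were called higher (18.5%, against 15.5% of all regions) and none lower. In SKG mice 6 rose (against 18.4% of all regions) and 9 fell (against 17.6%). There 2 were called higher (7.41%, against 10.2%) and 3 lower (11.1%, against 6.96%). Without SKG iNKT1 replicate 1 there were 0 called higher and 5 lower in SKG mice. Without BALB/c iNKT2 replicate 2 only 3 were called higher in BALB/c mice. The median was 0.73 in BALB/c and -0.53 in SKG mice, and it kept these signs, at 0.59 to 0.87 and -0.60 to -0.42, when single libraries were left out. Every one of the 27 regions had S1pr1 as its nearest start.

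At Ccr7 the median region was more accessible in iNKT2 cells, and the larger differences lay outside its start. Over the start (chr11:99154638-99155413) there were 19.4 and 14.3 CPM in BALB/c iNKT1, 12.5 and 17.1 in SKG iNKT1, 26.0, 24.2 and 19.4 in BALB/c iNKT2 and 47.5, 35.1 and 39.7 CPM in SKG iNKT2 libraries. In BALB/c mice the subsets overlapped in range and differed by 0.46 ± 0.191 (adjusted p = 4.9e-02), whereas in SKG mice they were apart and the region rose by 1.46 ± 0.202 (adjusted p = 2.3e-05). With scaling by library totals or quantile normalization the BALB/c difference passed, at 0.74 and 0.90.

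Upstream of Ccr7, a cluster of regions was all but closed in iNKT1 cells. The region at -15741 (chr11:99170818-99171250) held 0.329 and 0.0882 CPM in BALB/c iNKT1, 0 and 0.0642 in SKG iNKT1, 11.7, 11.6 and 7.42 in BALB/c iNKT2 and 14.9, 7.26 and 10.8 CPM in SKG iNKT2 libraries. The difference was 5.46 ± 0.468 in BALB/c mice (adjusted p = 1.6e-07). In SKG mice 819 insertions in iNKT2 cells stood against 1 in iNKT1 cells, a ratio of 363 with a 95% exact interval of 65.0 to 14400 (adjusted p = 2.2e-07). On either side of it, the region at -12917 had no insertion in either SKG iNKT1 library, so that SKG iNKT2 cells, at a mean of 4.59 CPM, were at least 47.7-fold higher, and that at -16480 had none in either BALB/c iNKT1 library, so that BALB/c iNKT2 cells, at 1.18 CPM, were at least 22.1-fold higher, both taking 3 insertions in the whole group as the floor. Further up, the region at -44601 (chr11:99199678-99200439) rose from 1.05 and 0.749 CPM to 5.77, 7.30 and 5.15 CPM in BALB/c (2.73 ± 0.276, adjusted p = 7.8e-07) and from 0.450 and 0.449 CPM to 15.2, 10.3 and 12.9 CPM in SKG mice (4.82 ± 0.338, adjusted p = 3.9e-08). Its neighbour at -48712 (chr11:99203789-99204426), like it 1 of 6 regions with another gene, here Smarce1, as nearest start, rose from 4.93 and 5.20 CPM to 21.5, 23.1 and 17.6 CPM in BALB/c (2.04 ± 0.267, adjusted p = 1.0e-05) and from 0.899 and 2.69 CPM to 46.7, 30.9 and 32.8 CPM in SKG mice (4.36 ± 0.326, adjusted p = 6.8e-08). Only 1 region was called lower, at +29663, which fell from a mean of 8.59 to 1.13 CPM in BALB/c and from 9.82 to 0.824 CPM in SKG mice (-2.91, adjusted p = 1.0e-05, and -3.44, adjusted p = 5.5e-06). The regions at -12917, -16480 and +29663 were singled out after their values were seen.

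In BALB/c mice 6 of the 29 Ccr7 regions were called higher (20.7%, against 15.5% of all regions) and 1 lower, and in SKG mice 9 higher (31.0%, against 10.2%) and 1 lower. By adjusted p, 11 of the 29 rose and 3 fell in BALB/c mice, where 25.7% of all regions rose and 23.4% fell. In SKG mice 18 of the 29 rose and 2 fell, where 18.4% of all regions rose and 17.6% fell. The medians were 0.94 and 1.48, also when the regions without insertions in a group were set to their bound. Summed over the 29 regions, Ccr7 held 101 ± 15.3 CPM (SD, n = 2) in BALB/c iNKT1, 107 ± 3.70 (n = 2) in SKG iNKT1, 139 ± 20 (n = 3) in BALB/c iNKT2 and 208 ± 44.3 CPM (n = 3) in SKG iNKT2 cells.

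Itgb7 sits in a gene-dense stretch, and 18 of its 28 regions had another gene, among them Rarg and Csad, as nearest start. At +741, just downstream of the Itgb7 start, accessibility was lower in iNKT2 cells. In BALB/c mice the upstream region at -510 rose instead (1.38, adjusted p = 6.5e-03), though 8 of 21 alternative settings did not keep this. The one at -5226 was called higher there (2.7, adjusted p = 3.7e-05). Both upstream regions were singled out after their values were seen. The region at +741 (chr15:102230679-102231203) held 31.7 and 29.8 CPM in BALB/c iNKT1, 46.2 and 53.4 in SKG iNKT1, 11.3, 7.54 and 9.89 in BALB/c iNKT2 and 12.7, 16.8 and 13.1 CPM in SKG iNKT2 libraries. It fell by 1.69 ± 0.175 in BALB/c (adjusted p = 1.0e-06) and by 1.81 ± 0.175 in SKG mice (adjusted p = 7.1e-07). The intronic region at +6262, chosen after its values were seen, fell as well, from a mean of 34.7 to 14.9 CPM in BALB/c (-1.22, adjusted p = 2.4e-06) and from 36.9 to 22.1 CPM in SKG mice (-0.73, adjusted p = 4.5e-04). The region over the start (chr15:102231780-102232284) held 10.2 and 6.92 CPM in BALB/c iNKT1, 12.2 and 15.1 in SKG iNKT1, 9.25, 10.7 and 8.95 in BALB/c iNKT2 and 10.6, 9.97 and 9.84 CPM in SKG iNKT2 libraries, and neither difference passed (0.17, adjusted p = 0.47, and -0.43, adjusted p = 7.6e-02).

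Every region called at Itgb7 was higher in iNKT2 cells, 5 in BALB/c (17.9%, against 15.5% of all regions) and 6 in SKG mice (21.4%, against 10.2%). The BALB/c share was thus near that of all regions. Among the called regions, 1 of the 5 and none of the 6 had Itgb7 as nearest start. The largest, at -41405 in a UTR of Gm9918, held at most 0.192 CPM in iNKT1 libraries, 3.04, 4.79 and 3.96 CPM in BALB/c iNKT2 and 5.38, 4.68 and 7.21 CPM in SKG iNKT2 libraries. In SKG mice it rose by 5.11 ± 0.462 (adjusted p = 3.7e-07), and in BALB/c mice 374 insertions stood against 3, a ratio of 74.5 (95% exact interval 25.3 to 363). The region at -31080 rose by 1.12 ± 0.18 in BALB/c (adjusted p = 6.8e-05) and by 2.25 ± 0.194 in SKG mice (adjusted p = 2.4e-07).

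Levels of different genes can be set side by side only per length. Per kb of the start region, BALB/c iNKT1 cells held a mean of 80.1 CPM at Klf2, 47.4 at Foxo1, 21.8 at Ccr7, 16.9 at Itgb7 and 7.03 at S1pr1, and the libraries overlapped only between Ccr7 and Itgb7. In SKG iNKT1 cells the means were 119 CPM per kb at Klf2, 47.1 at Foxo1, 27.1 at Itgb7, 19.1 at Ccr7 and 9.29 at S1pr1, with no overlap between neighbours in this order. In BALB/c iNKT2 cells they were 37.7 at Klf2, 36.3 at Foxo1, 29.9 at Ccr7, 19.0 at Itgb7 and 16.9 CPM per kb at S1pr1, and of neighbours in this order only Ccr7 and Itgb7 were apart in every library. In SKG iNKT2 cells the order was Klf2 at 58.3, Ccr7 at 52.5, Foxo1 at 45.2, Itgb7 at 20.1 and S1pr1 at 18.7 CPM per kb, with overlap between Klf2 and Ccr7, between Ccr7 and Foxo1 and between Itgb7 and S1pr1.

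The other question of the design was what the weakened ZAP70 signal of SKG mice changed within each subset. None of the 129 regions was called between the genotypes in either subset. Of all regions, 0.281% were higher and 0.732% lower by this rule in SKG iNKT1 cells, and 0.252% higher and 4.73% lower in SKG iNKT2 cells. DESeq2 gave no call either, whereas quantile normalization gave 4 in SKG iNKT2 cells, all higher (Klf2 +3259, Klf2 +41262, Ccr7 +37854 and Ccr7 -43804), and subtraction of a floor from each library 3. At an unadjusted p under 0.05 there were 36 of the 129 in iNKT1 cells, where 17.1% of all regions were under it, and 48 in iNKT2 cells, where 37.5% were. By adjusted p alone 3 regions rose and none fell in SKG iNKT1 cells (0.662% and 1.42% of all regions), and 13 rose and 1 fell in SKG iNKT2 cells (4.02% and 10.1% of all regions). The estimate was above 0 in 88 of the 129 regions in iNKT1 and in 98 in iNKT2 cells, with medians of 0.22 and 0.25, where the medians over all regions were -0.03 and 0.01. Over protein-coding start regions the medians were 0.05 and 0.26, so that start regions in general were shifted by as much in SKG iNKT2 cells.

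**Figure D3:**
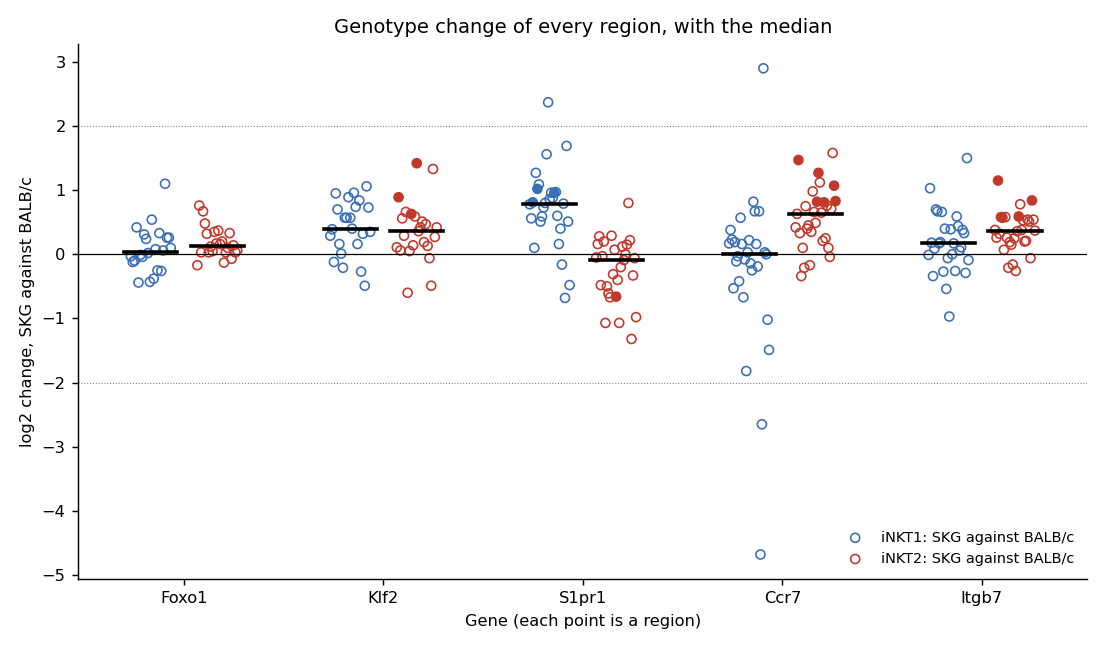
Change between genotypes (log2, SKG against BALB/c, y axis) of every region of each gene (x axis), in iNKT1 and in iNKT2 cells, with a line at the median. At S1pr1 the median is 0.79 in iNKT1 and -0.09 in iNKT2 cells, at Ccr7 it is 0 and 0.63, and at Klf2 it is 0.40 and 0.36. The 3 Ccr7 points furthest from 0 in iNKT1 cells come from regions with 0 or 1 insertion in a group.

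At Klf2 the SKG libraries were above the BALB/c libraries in both subsets. The start changed by 0.57 ± 0.159 in iNKT1 cells (adjusted p = 5.1e-02) and rose by 0.63 ± 0.131 in iNKT2 cells (adjusted p = 2.5e-03), and the ranges of the genotypes did not overlap in either subset. Of the protein-coding start regions, 98.3% and 96.7% had a lower estimate. In iNKT2 cells the rise no longer passed after a GC trend had been removed (0.37, adjusted p = 2.6e-02), nor without replicate 2 of BALB/c iNKT2 (0.60), replicate 2 of SKG iNKT2 (0.61) or SKG iNKT2 replicate 3 (0.55). The change did not differ detectably between the subsets (0.06 ± 0.205, adjusted p = 0.91).

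A pair of other Klf2 regions rose in SKG iNKT2 cells in every alternative fit, tests against a 2-fold change apart. At +3259, 0.816, 1.14 and 1.03 CPM in BALB/c stood against 3.03, 2.53 and 2.36 CPM in SKG libraries (1.42 ± 0.24, adjusted p = 5.2e-04). At -41459 (chr8:72277241-72277574), 5.14, 6.61 and 6.60 CPM stood against 11.1, 11.3 and 11.5 CPM (0.89 ± 0.144, adjusted p = 3.9e-04). Neither pair of groups overlapped, yet each SKG iNKT2 library stayed below the iNKT1 libraries of either genotype. The intronic region of Eps15l1 at +34517, with the highest level of the distal regions, did not follow, with -0.06 ± 0.106 (adjusted p = 0.73). Over all 23 Klf2 regions the medians were 0.40 in iNKT1 and 0.36 in iNKT2 cells, the latter 0.08 to 0.45 when single libraries were left out.

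At S1pr1 the genotypes differed in iNKT1 cells. Of its 27 regions, 24 had an estimate above 0 in SKG iNKT1 cells, with a median of 0.79, and 3 rose, where 0.662% of all regions did. The exonic region at +2837 (chr3:115711919-115712235) went from 13.6 and 12.7 CPM in BALB/c to 24.3 and 27.1 CPM in SKG libraries (0.96 ± 0.18, adjusted p = 5.0e-03), that at +31815 (chr3:115682278-115683257) from 37.9 and 31.2 to 67.7 and 72.6 CPM (1.02 ± 0.17, adjusted p = 2.2e-03), and that at +40968 from 26.3 and 25.8 to 42.2 and 49.3 CPM (0.81 ± 0.167, adjusted p = 9.3e-03). The genotypes did not overlap at any of them. None of the 3 kept an adjusted p under 0.01 when any 1 of the 4 iNKT1 libraries was left out, though the estimates stayed between 0.69 and 1.18. Summed over the 27 regions, S1pr1 held 229 ± 13.3 CPM (SD, n = 2) in BALB/c iNKT1 and 386 ± 23.3 CPM (n = 2) in SKG iNKT1 cells.

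In SKG iNKT1 libraries the region nearest to Cd8b1, a gene of double-positive thymocytes, was also higher, at 4.30 to 15.4 CPM against 0.478 to 1.68 CPM in BALB/c iNKT1 libraries. The region nearest to Rag1 went the other way, at 0.0642 to 0.642 CPM in SKG against 0.687 to 0.705 CPM in BALB/c iNKT1 libraries. No region covered the start of any of the 5 genes listed for these thymocytes (Rag1, Rag2, Cd8a, Cd8b1 and Ptcra), and their nearest regions, of which that of Ptcra held most insertions, summed to 24.7 to 28.3 CPM in BALB/c and to 36.6 to 43.2 CPM in SKG iNKT1 libraries. Their part in the S1pr1 result was not tested.

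In iNKT2 cells S1pr1 did not share this shift. The median was -0.09, the summed accessibility was 238 ± 16.9 CPM in BALB/c and 233 ± 21.2 CPM in SKG cells (SD, n = 3 each), and the start changed by 0.15 ± 0.20 (adjusted p = 0.63). The region at +9963 (chr3:115704337-115705109) fell, from 15.8, 16.5 and 16.2 to 11.2, 9.23 and 10.2 CPM (-0.66 ± 0.164, adjusted p = 7.9e-03), which no longer passed without replicate 2 (-0.70) or 3 (-0.71) of BALB/c iNKT2, replicate 2 of SKG iNKT2 (-0.59) or 3, or either SKG iNKT1 library (-0.66 for each of these 3). In iNKT1 cells the same region held 6.72 and 4.63 CPM in BALB/c and 9.44 and 11.4 CPM in SKG libraries. The interaction (genotype change in iNKT2 cells less the one in iNKT1 cells) was -1.52 ± 0.268 (adjusted p = 6.2e-03) at +9963, lost without single libraries of each group (-1.87 to -1.29), and the median of this interaction over the 27 regions was -0.83, with 26 of them below 0, against 0.06 over all regions.

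Ccr7 showed the reverse arrangement, with a genotype difference in iNKT2 cells. The estimate was above 0 in 25 of its 29 regions, with a median of 0.63, or 0.28 without SKG iNKT2 replicate 1. By adjusted p 6 of the 29 rose, where 4.02% of all regions did. Among the 23 regions whose nearest start was that of Ccr7, the median was 0.45 and 3 rose. At the start the SKG iNKT2 libraries, at 35.1 to 47.5 CPM, were all above the BALB/c iNKT2 libraries, at 19.4 to 26.0 CPM, a rise of 0.81 ± 0.168 (adjusted p = 2.3e-03) that 98.9% of protein-coding start regions did not reach. It no longer passed without BALB/c iNKT2 replicate 2 (0.78) or 3 (0.65), nor with library totals (0.68), quantile normalization (0.63) or the library floor subtracted (0.69). The rises at +4256, in an intron of Ccr7, and at -44601 passed in every alternative fit, tests against a 2-fold change apart. The former went from 1.88, 1.85 and 1.65 to 4.70, 3.72 and 4.58 CPM (1.27 ± 0.223, adjusted p = 7.1e-04) and the latter by 1.07 ± 0.197 (adjusted p = 9.6e-04).

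In iNKT1 cells the median over the Ccr7 regions was 0 and none passed. At -48712 the genotypes moved apart in opposite directions, by -1.49 ± 0.351 in iNKT1 (adjusted p = 2.1e-02, or 1.0e-02 with the replicate number as a block, just under the threshold) and by 0.83 ± 0.213 in iNKT2 cells (adjusted p = 9.4e-03). The interaction, 2.32 ± 0.409 (adjusted p = 6.4e-03), was the only 1 called among the 129, where 0.189% of all regions were called higher and 0.341% lower. By adjusted p alone there were 1 higher and 1 lower (0.446% and 0.479% of all regions), and at an unadjusted p under 0.05 there were 32, where 19.8% of all regions were. At an adjusted p under 0.05 there were 10 of the 129, where 4.14% of all regions were. The call was lost without BALB/c iNKT1 replicate 1 (2.32) or 2 (2.28), SKG iNKT1 replicate 1 (1.74), BALB/c iNKT2 replicate 2 (2.33) or 3 (2.14) or SKG iNKT2 replicate 3 (2.40). Without SKG iNKT1 replicate 2 the iNKT1 difference was -2.49 and was called.

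**Figure D4:**
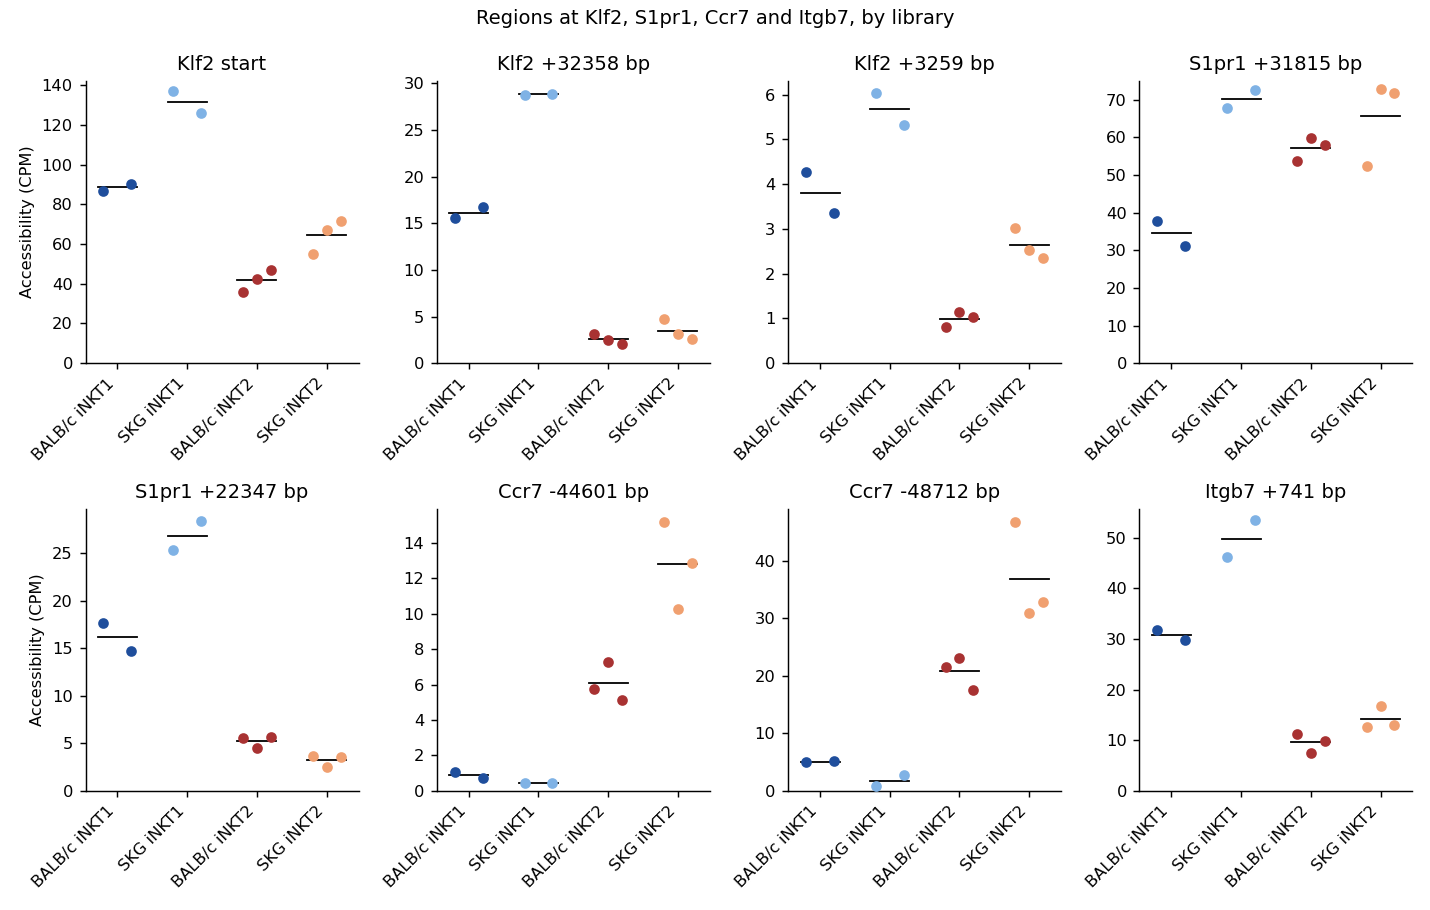
Accessibility (CPM, linear axis from 0) by library of single regions at Klf2, S1pr1, Ccr7 and Itgb7, with 1 point per library and a bar at the group mean. Groups overlap where the text says so, and the low level of several regions in iNKT2 or iNKT1 cells is visible against the axis.

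At Foxo1 no region passed between the genotypes in either subset, and its medians were 0.04 in iNKT1 and 0.13 in iNKT2 cells. The lowest adjusted p in iNKT2 cells was at -24302, with 0.76 ± 0.267 (adjusted p = 4.8e-02). The start of Foxo1 changed by -0.01 ± 0.141 in iNKT1 (adjusted p = 0.99) and by 0.32 ± 0.115 in iNKT2 cells (adjusted p = 5.3e-02). At Itgb7, none of the 28 regions rose in SKG iNKT1 cells, where 0.662% of all regions rose. In SKG iNKT2 cells, where 4.02% of all regions rose, 4 of the 28 did, 1 of them with Itgb7 as nearest start. Of these, the region at -31080 (chr15:102263024-102263414), whose nearest start is that of Rarg, went from 19.1, 23.2 and 17.0 to 34.0, 36.2 and 36.4 CPM (0.84 ± 0.152, adjusted p = 8.7e-04) and passed in every such fit, and the intronic region at +6262 rose by 0.58 ± 0.127 (adjusted p = 3.8e-03), which 9 of 22 alternative settings did not keep. The region at +741, whose SKG libraries were higher in both subsets, did not pass, at 0.70 ± 0.191 in iNKT1 (adjusted p = 4.6e-02) and 0.57 ± 0.164 in iNKT2 cells (adjusted p = 1.7e-02).

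The wider pathway was described by 3 lists of genes under the same rule. Signalling around sphingosine 1-phosphate and egress comprised 295 regions at 14 genes, of which 8 were called higher and 25 lower in iNKT2 cells of BALB/c mice and 9 higher and 20 lower in SKG mice. These are 2.71% and 8.47% in BALB/c and 3.05% and 6.78% in SKG mice, where 15.5% and 6.36% and 10.2% and 6.96% of all regions were called, so that the shares of lower calls were near those of all regions. S1pr4, another sphingosine 1-phosphate receptor, had 7 of 31 regions called lower in BALB/c and 5 in SKG mice and none higher, and Rac2, a GTPase of cell migration, 5 of 36 and 3 of 36 lower, with 1 higher in SKG mice. The 181 regions of 9 homing receptors had 9 called higher and 25 lower in BALB/c and 12 higher and 25 lower in SKG mice, which is 4.97% and 13.8%, and 6.63% and 13.8%. Itgb1, the integrin beta 1 chain, had 8 of 16 regions called lower in each genotype, whereas Ccr9, the receptor for the gut and thymus chemokine CCL25, had 4 of 20 called higher in BALB/c and 6 in SKG mice and none lower. The 263 regions at 12 regulators had 22 called higher in each genotype, and 17 lower in BALB/c and 15 lower in SKG mice, that is 8.37% higher in each and 6.46% and 5.70% lower, with Foxp1, which counteracts FOXO1, at 7 higher and 7 lower of 68 in BALB/c and 9 higher and 5 lower in SKG mice. Klf3, a repressor related to KLF2, had 3 of 17 regions called higher and 2 lower in BALB/c and 2 higher and 3 lower in SKG mice. Medians of the 3 lists were -0.49, -0.65 and -0.35 in BALB/c mice, against 0.06 over all regions, and -0.26, -0.32 and 0.02 in SKG mice, against 0.14.

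Between the genotypes the 3 lists together had few calls, where 0.252% of all regions were called higher and 4.73% lower in iNKT2 cells and 0.281% and 0.732% in iNKT1 cells. In iNKT2 cells 2 regions were called higher and 5 lower in the first list, 2 higher and 1 lower in the second and 1 higher and 1 lower in the third. In iNKT1 cells there were none in the first, 1 lower in the second and 3 lower in the third. The start of S1pr5, the sphingosine 1-phosphate receptor of natural killer cells, was called higher in SKG iNKT2 cells, at a mean of 0.749 against 0.124 CPM (2.57 ± 0.576, adjusted p = 4.2e-03), and differed by 2.53 ± 0.548 in iNKT1 cells (adjusted p = 1.3e-02), where its means were 3.24 and 0.549 CPM. In BALB/c iNKT2 libraries 3 insertions are worth 0.0794 to 0.124 CPM, so that the change in iNKT2 cells rests on few insertions. The S1pr5 start was singled out after its values were seen.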

How the data were processed

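ATAC-seq of sorted thymic iNKT1 and iNKT2 cells of BALB/c and SKG mice was deposited as 1 table of 94823 regions and 10 libraries, and its values are whole-number counts of insertions per region, as the authors deposited them. The table is titled as normalized counts, but its whole numbers and unequal library totals are those of raw counts, and they were treated as such, on which every count, floor and interval here rests. Regions were given without strand on mm10, taken as half-open intervals, since widths then start at 300 bases, and written here from 1. The submitters' processing notes name bcl2fastq, Trim Galore, Bowtie 1.0, Picard, MACS2 and limma. By the study's methods, the authors kept uniquely mapped read pairs, trimmed and realigned unmapped ones, removed mitochondrial and duplicate reads, called summits with MACS2 in each replicate from short, nucleosome-free fragments, widened and merged them over all replicates into a common set without chromosome Y or blacklisted regions, and counted insertions there. Regions open in any group thus entered the table for all, and a shift for the transposase's insertion site is not given in the sources used here. The uniform size that the methods give to widened summits is above the 300-base minimum and the 343-base median width of the deposited regions. The deposited widths thus do not follow from the methods as written. The authors' own contrasts used voom and limma, which is an alternative here. Gene positions were taken from GENCODE M21 (GRCm38). Of the 5 genes, 3 were in the RefSeq promoter table.

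Counts of all regions were fitted at once in R 4.3.3 by the quasi-likelihood test of edgeR 4.0.16, with TMM factors, a mean for each of 4 groups and Benjamini-Hochberg adjustment, without a filter on low counts. CPM were computed with the same factors. No library was pooled, dropped or imputed, and 0 count columns were left without a sample. Library totals of 14988590 to 36342635 insertions set the precision, and intervals and floors of 3 insertions cover counting error only. The test was tried on simulated data with 200 changed regions.

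For each gene the start region, the region of lowest adjusted p in each comparison and every region called between genotypes were named by rule. The members and lists were chosen with earlier results of these data known. Of each list of pathway genes, the 2 to 4 genes with most called regions were named, and the 3 start regions most alike each member's. The libraries numbered 1 of BALB/c and SKG iNKT2 cells deviated together (r = 0.492), so that the replicate number was also fitted as a block. Numbers 2 and 3 (r = 0.165 and 0.202) did not stand out from pairs of different numbers, which reached 0.278. Same-numbered iNKT1 libraries of the 2 genotypes did not deviate together (r = -0.00599). Between the subsets of BALB/c mice, same-numbered libraries deviated together weakly, at r = 0.145 for number 1 and 0.107 for number 2. Pairs of different numbers there lay at -0.145 to 0.0923. Between the subsets of SKG mice the same-numbered pairs were at 0.00508 and -0.0122. The deviations of 2 libraries in a group mirror each other, so that these values are not separate. That number 1 pairs iNKT2 libraries rests on the data, not on the labels, and the data do not show it for numbers 2 and 3.

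Alternatives were DESeq2 1.42.0, limma 3.58.1 with voom or quantile normalization, library totals, a filter on low counts, other thresholds, a test against a 2-fold change, removal of a GC trend, subtraction of a library floor, thinning to the smallest library, only the groups compared, narrower sets of regions and each library left out. Motifs were searched in Python 3.11.15 with pysam 0.24.0. An item withheld from the marker lists is not reported here.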

Additional observations from a re-analysis of the deposited data

Results flagged for a closer look

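The genotype change differed between the subsets at 10 of the 129 regions, by an interaction term in edgeR at an adjusted p under 0.05, where 4.14% of all regions were under it. At S1pr1 this term (log2, the iNKT2 change less the iNKT1 change) was -0.82 at +31815, -1.01 at +25291, -1.40 at +22347, -1.87 at +19476, -1.52 at +9963 and -1.17 at +2837. At +25291 the SKG libraries were higher in iNKT1 cells (22.4 against 15.7 CPM) and lower in iNKT2 cells (15.6 against 22 CPM). At +19476 SKG iNKT1 cells held a mean of 3.47 CPM against 1.2, 1.44 and 1.12 CPM in BALB/c iNKT1, BALB/c iNKT2 and SKG iNKT2 cells.

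At Ccr7 the same term was 1.01 at the start, 2.09 at -44601 and 2.32 at -48712, and at Itgb7 it was 1.13 at -31080. With the replicate number as a block, the Itgb7 term was 1.14 (adjusted p = 6.5e-03).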

How the results depend on the processing

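Of 24 regions called between the subsets of BALB/c mice, 14 were called in every alternative fit at the same threshold, and of 28 in SKG mice, 16 were. Of 14 regions past an adjusted p of 0.01 between genotypes in iNKT2 cells 5 passed in every such fit, and of 3 in iNKT1 cells 0 did. Regions under about 2 CPM, 22 of the 129 in every group, rest on few insertions. Scaling by library totals moved the median of all regions from 0.06 to 0.34 in BALB/c, from 0.14 to 0.32 in SKG mice and from 0.01 to -0.12 between genotypes in iNKT2 cells, and kept the direction of every gene's median between the subsets, whereas quantile normalization turned that of Foxo1 in BALB/c mice from 0.67 to -0.09.

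The BALB/c count of 24 became 67 at an adjusted p under 0.05 and 2-fold, 73 with no fold and 5 within 10 kb of the start. The SKG count of 28 became 73, 71 and 6 under these settings and 18 with quantile normalization. Between genotypes the count of 0 in iNKT1 cells became 3 under each of the looser thresholds and 0 to 1 without single libraries. The count of 0 in iNKT2 cells became 10 and 14, 4 with quantile normalization, 3 with the library floor subtracted and 0 to 1 without single libraries. The interaction count of 1 became 9 and 2 under the looser thresholds, 2 with DESeq2, 2 without replicate 1 of both iNKT2 groups, which was chosen after seeing the data, 0 to 1 without single libraries, and 0 with library totals, voom, quantile normalization, the low-count filter, the test against a 2-fold change, the library floor, within 10 kb or at own starts. The cause was not tested.

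At the Klf2 start the changes of -1.09 and -1.03 between subsets did not pass against a 2-fold change. The iNKT1 genotype change of 0.57 passed with quantile normalization (0.49), only the groups compared (0.59), the GC trend removed and the block (0.52), and without replicate 1 of both iNKT2 groups (0.58). The iNKT2 change of 0.63 did not pass with only the groups compared (0.63), either test that asks for 2-fold (0.63) or the GC trend removed (0.37), and lay at 0.52 to 0.74 without single libraries. Its interaction of 0.06 became -0.14 with the GC trend removed and -0.15 with the block as well. Signs reversed below the threshold at the S1pr1 start in iNKT2 cells without BALB/c iNKT2 replicate 1 (-0.09, and up to 0.25 without other single libraries), at the Ccr7 start in iNKT1 cells without BALB/c iNKT1 replicate 1 (0.05, from -0.44), at the Itgb7 start in BALB/c mice without BALB/c iNKT1 replicate 2 (-0.08, up to 0.51), and at the Foxo1 start in SKG mice with library totals (0.12), quantile normalization (0.13), the GC trend removed (0.14) and this with the block (0.12). The other 1006 of 1091 values for named regions kept direction and side of the threshold, 53 were weaker and 25 stronger.

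With the replicate number as a block, 23 regions were called in BALB/c and 27 in SKG mice, none between genotypes and 1 interaction, and the Klf2 start changed by -1.18, -1.12, 0.57 and 0.63. Beside the Foxo1 start, Ccr7 -48712 and Itgb7 -31080, the block changed no call of a region named by rule.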

Other observations

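Over the 10 libraries, the protein-coding start regions most alike that of Klf2 (Pearson's r of log2(CPM + 1) over 4958 start regions with a mean of at least 33.8 CPM, as a description, since the libraries share groups and depth) were those of Cacybp (0.996), Cdkn2c (0.996) and Rfx1 (0.994). The Cdkn2c start held a mean of 48.6 CPM in BALB/c iNKT1, 63.4 in SKG iNKT1, 26.3 in BALB/c iNKT2 and 34.9 CPM in SKG iNKT2 cells, and Cdkn2c encodes an inhibitor of cyclin-dependent kinases. For S1pr1 the start most alike was that of Tle1 (0.962), a transcriptional corepressor, at means of 31.7, 41.1, 135 and 139 CPM in the same order of groups, followed by Trmt11 (0.955) and Efnb2 (0.954). For Ccr7 the starts were those of Carmil2 (0.927), P2rx4 (0.912) and Cdc42ep4 (0.884), for Foxo1 those of Atp5g3 (0.994), Eapp (0.985) and Bccip (0.984), and for Itgb7 those of Hist1h2be (0.743), Arhgdib (0.739) and Cct4 (0.683).

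Outside the 5 genes, several start regions of the 3 lists were lower in BALB/c iNKT2 cells and higher in SKG than in BALB/c iNKT2 cells. Protein-coding start regions in general leaned the same way, with medians of -0.35 and 0.26. Of 9916 such regions, 3788 fell and 702 rose in BALB/c iNKT2 cells. With the SKG genotype 821 rose and 200 fell in iNKT2 cells. Cxcr4, the receptor for the chemokine CXCL12, held a mean of 60.4 CPM in BALB/c iNKT1, 43.7 in SKG iNKT1, 25.4 in BALB/c iNKT2 and 41.7 CPM in SKG iNKT2 cells. Its start fell in iNKT2 cells of BALB/c mice (-1.25, adjusted p = 5.5e-07) and rose with the SKG genotype in iNKT2 cells (0.72, adjusted p = 2.7e-04), and the interaction was 1.18 (adjusted p = 2.5e-03). Cd69, whose product removes the sphingosine 1-phosphate receptor from the cell surface, fell by 1.04 in BALB/c mice (adjusted p = 7.0e-06) and rose by 0.74 (adjusted p = 3.9e-04) with the SKG genotype in iNKT2 cells. Its interaction of 0.75 (adjusted p = 3.7e-02) did not pass. Klf3, a repressor related to KLF2, fell in both genotypes (-1.41, adjusted p = 9.2e-07, and -0.92, adjusted p = 7.9e-05) and rose by 0.65 (adjusted p = 2.2e-03) with the SKG genotype in iNKT2 cells. These genes were singled out after their values were seen.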
